A study of Glycine max with 4 samples.

Results

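Leaf transcripts of 10 soybean (Glycine max) flowering genes were followed: 9 homologs of FLOWERING LOCUS T (FT) and the maturity repressor E1. The members were taken by gene identifier from a list, and all 10 were found among the 54175 gene models of the deposited expression table. The list names 3 of them, FT2a (Glyma16g26660), FT5a (Glyma16g04830) and E1 (Glyma06g23026). The other 7 are FT homologs and appear here by identifier, because 0 of the 10 identifiers matched the RefSeq gene table used here. Genes that RefSeq calls FT or FTL (12 symbols, assembly Glycine_max_v4.0) could therefore not be tied to these 7.

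FT proteins are the mobile flowering signal of plants: they are made in leaf veins in response to day length and travel to the shoot tip, where they help to switch on floral genes. Soybean is a short-day plant with an enlarged FT family. FT2a and FT5a promote flowering, while other members of the soybean family (FT1a and FT4) have been described as floral repressors. E1 encodes a nuclear protein specific to legumes that lowers FT2a and FT5a under long days, and variation in E1 is a main source of differences in maturity between soybean lines.

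The study set 2 lines side by side, Pana, labelled drought susceptible, and PI 567690, labelled drought tolerant. Plants grew in pots of soil and sand, water stress started at the V5 stage and ran for 15 days, and leaves were taken at the R2 stage, when soybean is in flower. Each line was sampled well watered and droughted, which gives 4 groups of 3 libraries (12 in all), called biological replicates in the design text. The plants behind each library are not given, and the spread that p-values measure here, among libraries, may be technical. Levels are FPKM, fragments scaled by the length of the gene model and by library size, so they can be compared between genes.

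A pair of libraries stood apart and touch the results below. Pana control library 1 listed 15657 gene models at 0, against 9535 to 12093 in the others, and correlated at most at r = 0.864 with its own group across genes. Pana drought library 3 correlated best with PI 567690 control library 1 (r = 0.938, against at most 0.863 within its group). A library of another group was also the closest for Pana drought library 1 (r = 0.92, own group 0.901), Pana drought library 2 (0.936, own group 0.901) and PI 567690 drought library 1 (0.936, own group 0.925). Depth relative to the deepest library, read from the size of 1 read in FPKM, was 48.3% to 100%. Leaf identity was checked with 3 gene models known as Rubisco small subunit genes, which the table does not annotate: together they stood at 2542 to 51250 FPKM. The range was 24420 to 42650 FPKM in Pana control and 47970 to 51250 FPKM in PI 567690 control. Under drought it was 2542 to 41960 FPKM in Pana, highest in library 3, and 5027 to 16980 FPKM in PI 567690. Seed storage protein models (3) reached at most 0.0807 FPKM in sum, and leghemoglobin models (3) were at 0 throughout.

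Of the 10 members, 5 reached 1 FPKM in at least 3 libraries and could be tested: FT2a, FT5a, Glyma19g28400, Glyma18g53680 and Glyma08g47810. E1 and the FT homologs Glyma16g26690, Glyma16g04840, Glyma19g28390 and Glyma18g53690 did not. What stood out among the 5 was how far replicate libraries of the same group lay apart. FT5a and Glyma19g28400 were high or low together, and Glyma08g47810 tended to be high where FT2a was low. For 6 members with values above 0 in several libraries, the FPKM values were whole multiples of the value of 1 read (within 0.06 reads), so the reads behind them could be recovered, taking the smallest common step as 1 read. Glyma18g53680 did not resolve in this way. Glyma16g04840 and Glyma19g28390 had a single value above 0, which cannot be checked so, and Glyma18g53690 had none.

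FT5a was the most abundant member. It stood at 0.777, 69.4 and 52.6 FPKM in Pana control libraries 1 to 3, on 14, 1621 and 1580 reads. Under drought in Pana the levels were 8.04, 13.6 and 1.01 FPKM. The PI 567690 controls held 0.279, 9.40 and 5.24 FPKM, on 5, 334 and 114 reads, and the PI 567690 drought libraries 8.996, 9.68 and 9.88 FPKM. Only the droughted PI 567690 plants had replicates close to each other, and the 4 groups overlapped throughout. Across all tested gene models, libraries 2 and 3 of that group were the more alike (r = 0.992), while library 1 reached at most 0.925 with them. The exact 95% Poisson interval, which covers counting error only, was 0.0905 to 0.651 FPKM in PI 567690 control library 1 and 8.42 to 10.5 FPKM in library 2. These are whole-leaf levels, in which fewer expressing cells and less RNA per cell cannot be told apart.

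FT2a, encoded by the E9 maturity locus, was at 0.767, 33.4 and 23.0 FPKM in well-watered Pana and at 10.4, 1.68 and 0.0352 FPKM in droughted Pana. The PI 567690 controls held 0, 1.59 and 1.39 FPKM of FT2a, and the droughted plants of that line 1.31, 0.731 and 0.540 FPKM. Pana thus held the 3 highest values, in control libraries 2 and 3 and drought library 1, while no PI 567690 library passed 1.59 FPKM. The zero in PI 567690 control library 1 has an exact 95% Poisson interval up to 0.258 FPKM, where 3 reads would be 0.210 FPKM.

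The FT homolog Glyma19g28400 ran almost in parallel with FT5a. Its levels were 0, 15.4 and 11.1 FPKM in the Pana controls, 1.76, 3.25 and 0.185 FPKM in Pana drought, 0.123, 1.55 and 1.31 FPKM in the PI 567690 controls and 1.66, 2.92 and 2.36 FPKM in PI 567690 drought. Its 3 lowest libraries (Pana control 1, Pana drought 3 and PI 567690 control 1) were also the 3 lowest for FT5a.

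Glyma18g53680 and Glyma08g47810 were distributed otherwise. Glyma18g53680 stood at 4.62, 0.158 and 0.213 FPKM in the Pana controls and at 0.0347, 1.94 and 7.46 FPKM in Pana drought. It stood at 1.07, 0 and 0 FPKM in the PI 567690 controls and at 2.41, 5.37 and 4.79 FPKM in PI 567690 drought. In Pana its highest libraries, control 1 and drought 3, were those with the least FT5a. In PI 567690 all 3 drought libraries lay above all 3 controls, where groups did not overlap for 63.8% of all tested gene models.

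Glyma08g47810 was at 8.79, 1.09 and 0 FPKM in the Pana controls, 0.0546, 4.42 and 5.68 FPKM in Pana drought, 10.1, 1.39 and 1.33 FPKM in the PI 567690 controls and 3.46, 7.85 and 7.99 FPKM in PI 567690 drought. The highest value came from PI 567690 control library 1, which had no FT2a reads. The lowest came from Pana control library 3 and Pana drought library 1, where FT2a was at 23.0 and 10.4 FPKM.

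**Figure D1:**
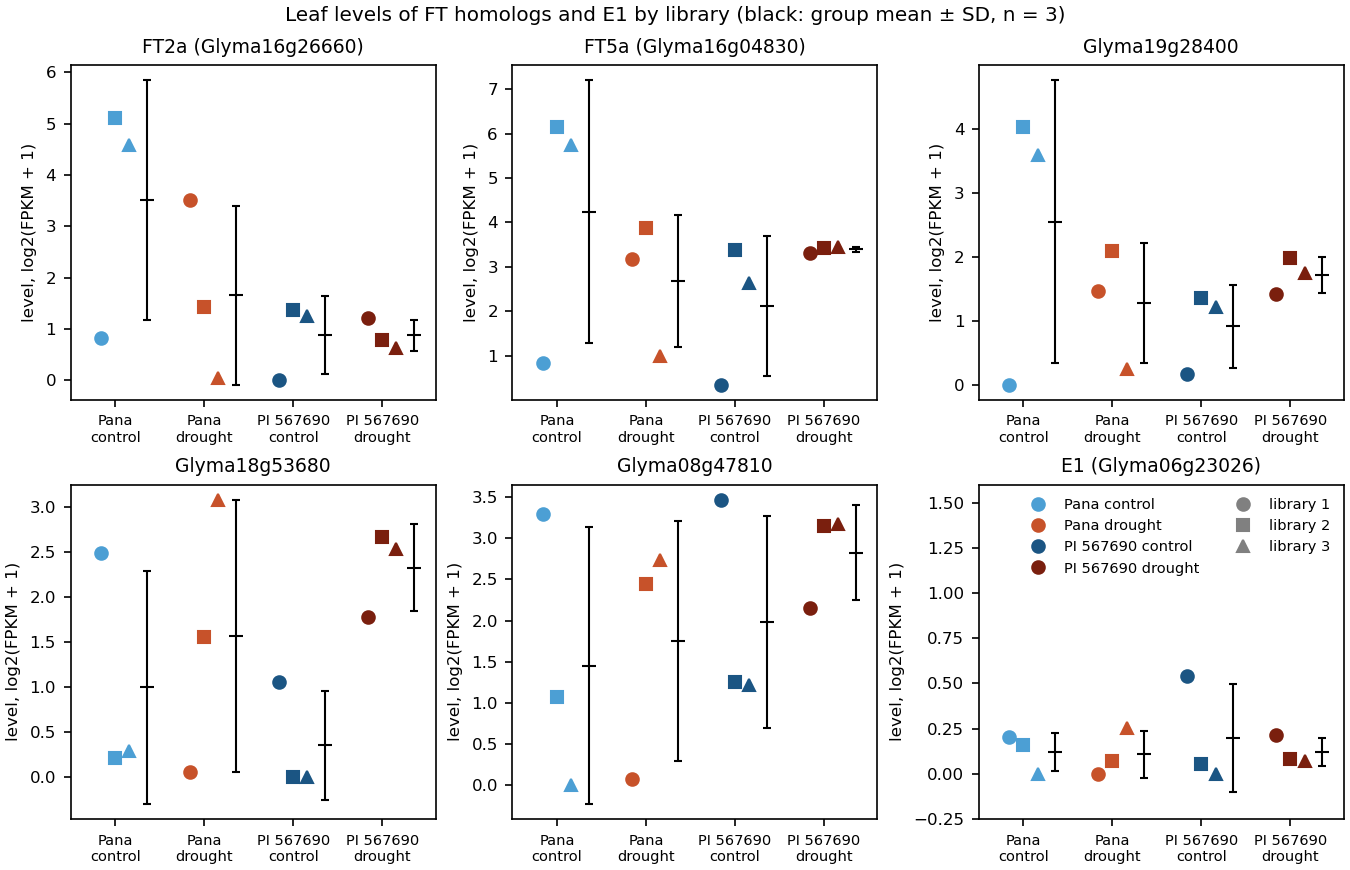
Levels on a log2(FPKM + 1) scale of the 5 tested members and E1, by library (symbols for libraries 1 to 3 of a group) and group (colours), with the group mean ± SD (n = 3) in black. FT2a, FT5a and Glyma19g28400 are low in Pana control library 1, Pana drought library 3 and PI 567690 control library 1, and E1 reaches at most 0.456 FPKM.

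E1 itself was barely detected. It stood at 0.151, 0.117 and 0 FPKM in the Pana controls, 0, 0.0492 and 0.191 FPKM in Pana drought, 0.456, 0.0384 and 0 FPKM in the PI 567690 controls and 0.158, 0.0566 and 0.0488 FPKM in PI 567690 drought. These values rest on 0 to 6 reads per library and 21 reads in all. The highest, 6 reads in PI 567690 control library 1, has an exact Poisson interval of 0.167 to 0.992 FPKM. Differences in E1 between lines or treatments were not detectable at this depth.

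Glyma16g26690, whose identifier places it close to FT2a on chromosome 16, was seen in Pana alone among these libraries. It was at 2.06 and 4.91 FPKM in Pana control libraries 2 and 3, on 17 and 52 reads, and at 0.102 FPKM (1 read) in Pana drought library 2. It was listed at 0 in the other 9 libraries, where 3 reads would be 0.238 to 0.493 FPKM. The libraries with most Glyma16g26690 were also the highest for FT2a, at 16.2 and 4.68 times the level of Glyma16g26690. Near-identical copies can share reads, and how the authors' software divided them is not given, so levels of such neighbours are uncertain.

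Glyma16g04840 and Glyma19g28390 had a value above 0 in Pana control library 3 only, at 0.381 and 0.0952 FPKM, which is at least 1 read each. Taking each value as 1 read, 3 reads would be 0.962 to 1.99 FPKM for Glyma16g04840 and 0.241 to 0.498 FPKM for Glyma19g28390. Levels up to about these could therefore go unseen in a library listed at 0. Glyma18g53690 was at 0 in all 12 libraries. By identifier these models lie beside more abundant members: Glyma16g04840 beside FT5a, Glyma19g28390 beside Glyma19g28400, and Glyma18g53690 beside Glyma18g53680.

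The spread between replicates of the tested members was among the widest in the table. Pooled over the 4 groups, the SD of FT5a was 1.84 on the log2(FPKM + 1) scale, against a median of 0.393 over the 32697 tested gene models, and 0.327% of these had a larger SD. For FT2a the SD was 1.51 (0.878% larger), for Glyma08g47810 1.32 (1.64%), for Glyma19g28400 1.25 (2.06%) and for Glyma18g53680 1.07 (3.89%). The PI 567690 controls were otherwise close replicates, with a median SD of 0.139, but FT5a had an SD of 1.58 there and 0.159% of tested gene models exceeded it. PI 567690 drought was the exception for FT5a, which had an SD of 0.0645 there, and 89.5% of tested gene models were more variable. The other tested members had SDs of 0.283 to 0.578 in that group, above its median of 0.213.

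**Figure D2:**
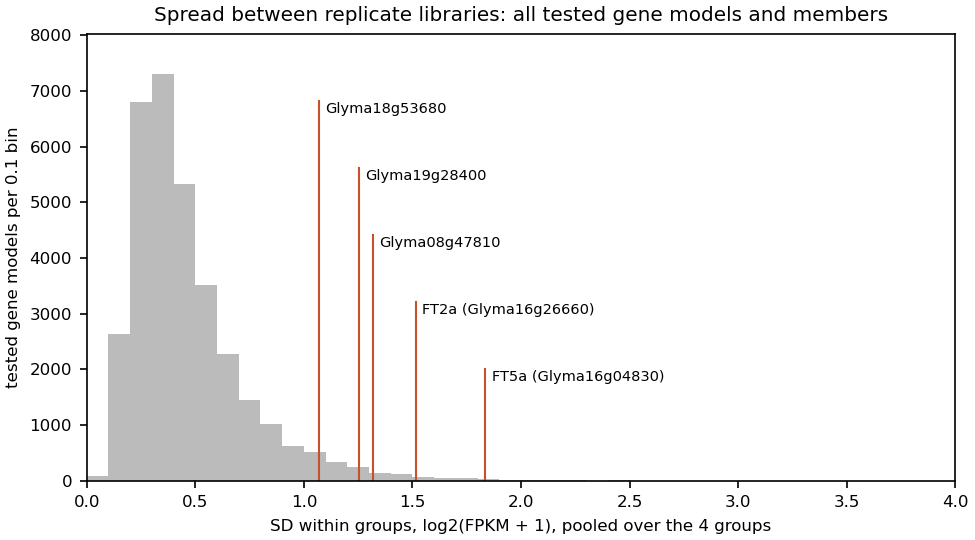
Number of tested gene models (vertical axis, per bin of 0.1) by their SD within groups on the log2(FPKM + 1) scale, pooled over the 4 groups (horizontal axis), with the 5 tested members marked by lines. All 5 lie in the right tail, from Glyma18g53680 at 1.07 to FT5a at 1.84.

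Levels of the members were then compared across the 12 libraries, as 10 pairs. FT5a and Glyma19g28400 had the closest relation (Pearson r = 0.978, permutation p = 2e-05, adjusted 0.0002; Spearman rho = 0.958, permutation p = 1e-05, the smallest 100000 permutations can give, adjusted 0.0001). The correlation was 0.98 without the 2 libraries farthest from the median of FT5a, 0.996 within the 6 Pana libraries and 0.94 within the 6 of PI 567690. Among 32696 other tested gene models, each was the closest to the other. In the 9 libraries with both at or above 1 FPKM, FT5a was 3.31 to 6.07 times the level of Glyma19g28400 per length, with a median of 4.52. As homologs they can share reads, and whether this adds to the correlation was not tested.

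FT2a followed FT5a less closely (r = 0.822, permutation p = 0.00107, adjusted 0.00292; rho = 0.657, p = 0.0242, adjusted 0.0477). Without the 2 libraries farthest from the median of FT2a, both Pana controls, r was 0.529, so much of the r over 12 libraries rests on them. Within the 6 Pana libraries r was 0.902, and within the 6 of PI 567690, which include neither, 0.739. FT2a ranged from 0 to 1.29 times the level of FT5a. The ratio was 0.481 and 0.437 in Pana control libraries 2 and 3, 1.29 in Pana drought library 1 and 0.123 in library 2. In PI 567690 it was 0.169 and 0.265 in control libraries 2 and 3 and 0.146, 0.0755 and 0.0546 under drought. The proportion of these 2 promoters of flowering thus varied between libraries of the same group.

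Glyma08g47810 was inversely related to FT2a (r = -0.821, permutation p = 0.00091, adjusted 0.00292; rho = -0.867, p = 0.00053, adjusted 0.00265). The inverse relation was also present within each line, at r = -0.86 over the 6 Pana libraries and -0.88 over the 6 of PI 567690, and without the 2 farthest libraries (r = -0.856). Of 32696 gene models, FT2a had the fifth lowest correlation with Glyma08g47810. With Glyma18g53680 the correlation was positive (r = 0.809, permutation p = 0.00289, adjusted 0.00578; rho = 0.648, p = 0.0251, adjusted 0.0477).

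Glyma18g53680 and FT2a were inversely related over all libraries (r = -0.642, permutation p = 0.0244, adjusted 0.0372; rho = -0.641, p = 0.0286, adjusted 0.0477), with an r of -0.941 in Pana and -0.387 in PI 567690. For FT5a the correlation with Glyma18g53680 was -0.836 in Pana and 0.272 in PI 567690 (all 12 libraries: r = -0.452, permutation p = 0.141, adjusted 0.156; rho = -0.116, p = 0.721, adjusted 0.735). The difference between the lines was not tested. The remaining 3 pairs were FT5a with Glyma08g47810 (r = -0.64, permutation p = 0.026, adjusted 0.0372; rho = -0.51, p = 0.0954, adjusted 0.119), Glyma19g28400 with Glyma08g47810 (r = -0.582, permutation p = 0.0473, adjusted 0.0592; rho = -0.552, p = 0.0665, adjusted 0.0951) and Glyma19g28400 with Glyma18g53680 (r = -0.425, permutation p = 0.172, adjusted 0.172; rho = -0.109, p = 0.735, adjusted 0.735). FT2a with Glyma19g28400 gave r = 0.837 (permutation p = 0.00117, adjusted 0.00292; rho = 0.664, p = 0.0219, adjusted 0.0477), and 0.439 without the 2 farthest libraries. For this pair r was 0.892 in Pana and 0.524 in PI 567690.

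**Figure D3:**
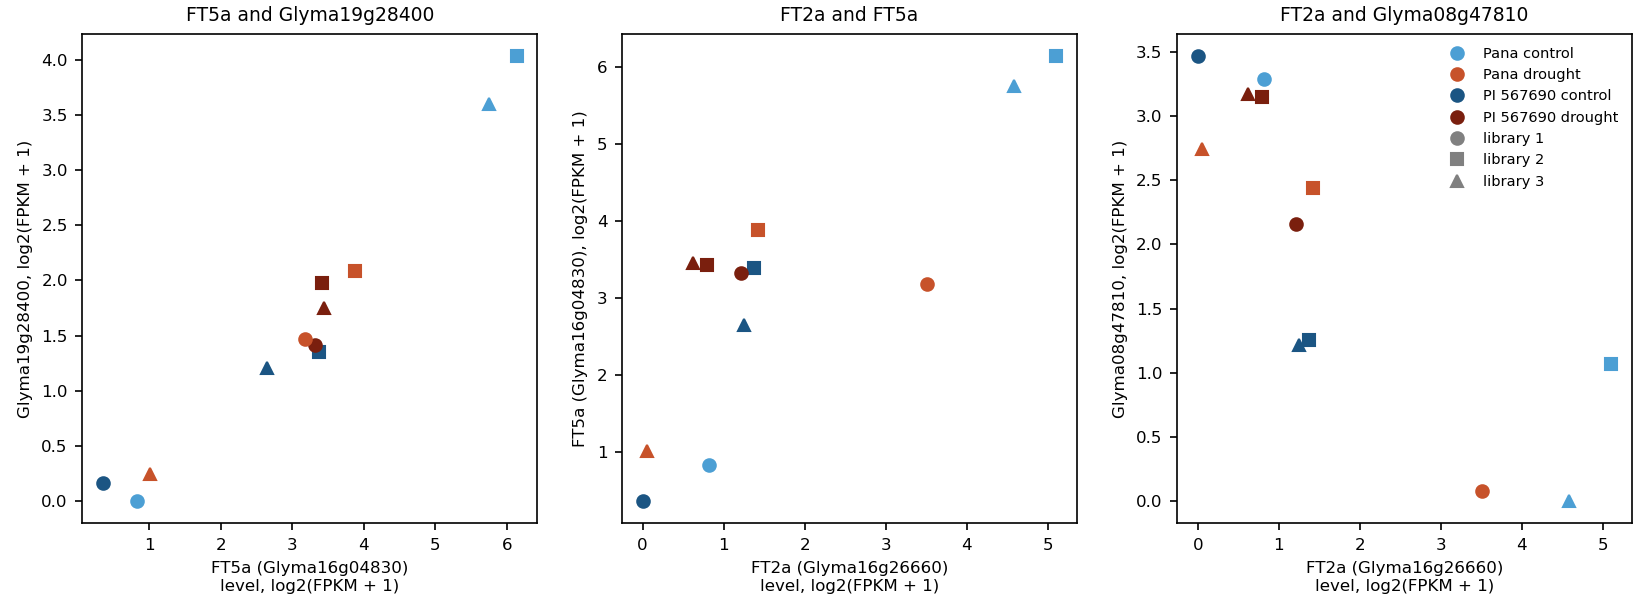
Each point is 1 of 12 libraries, with levels on the log2(FPKM + 1) scale on both axes; colours give the group and symbols the library number. FT5a and Glyma19g28400 lie near 1 line (r = 0.978), FT2a and FT5a scatter more widely (r = 0.822), and Glyma08g47810 falls as FT2a rises (r = -0.821).

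The gene models most like each member in pattern over the 12 libraries, by Pearson r, were taken without regard to function. For FT2a they were Glyma17g08750 (r = 0.954, 0 to 20.9 FPKM) and Glyma05g21921 (r = 0.879). For FT5a, Glyma01g15134 (r = 0.936) came after Glyma19g28400, and for Glyma19g28400, Glyma16g21520 (r = 0.899) came after FT5a. Glyma18g53680 was most like Glyma08g08860 (r = 0.927) and Glyma15g27750 (r = 0.881), and Glyma08g47810 most like Glyma05g09160 (r = 0.857) and Glyma05g16850 (r = 0.841). The files do not annotate these gene models.

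The first comparison asked whether drought changed the members in Pana. In limma, over all 12 libraries, 0 of 5 tested members passed an adjusted p of 0.05 (2.15% of all tested gene models did), and 0 had an unadjusted p under 0.05, as 29.7% of all tested gene models had. FT2a had a mean of 19.0 ± 16.7 FPKM in the controls and 4.03 ± 5.56 FPKM under drought (SD, n = 3 each), with a log2 difference of -1.84 ± 1.05 (SE; limma adjusted p = 0.247). For FT5a the means were 40.9 ± 35.8 and 7.56 ± 6.33 FPKM (log2 difference -1.55 ± 1.27 SE, adjusted p = 0.411). The median log2 difference of the 5 members was -1.28, against 0.32 for all tested gene models. The 95% intervals of all 5 members included 0, and that of FT5a ran from -4.32 to 1.22, so these data do not show whether FT5a changed.

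The 2 libraries that stood apart weighed on this comparison. Without Pana control library 1, Glyma19g28400 passed (log2 difference -2.55 ± 0.51 SE, adjusted p = 0.0446), with 1.48% of all tested gene models called and 0.651% called lower. Without both that library and Pana drought library 3, a choice made after the data were seen, 3 of 5 members passed as lower under drought: Glyma19g28400 (log2 -2.04, adjusted p = 0.00926), FT2a (-2.38, adjusted p = 0.0249) and FT5a (-2.42, adjusted p = 0.0404). In that fit 31.3% of all tested gene models were called, 7.52% as lower. Glyma18g53680 and Glyma08g47810 did not pass in any setting of this comparison.

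In PI 567690 drought again gave 0 of 5 members past the adjusted threshold (12.3% of all tested gene models passed). With an unadjusted limma p under 0.05 there was 1 member, Glyma18g53680, where 30.0% of all tested gene models had one. Glyma18g53680 went from 0.357 ± 0.618 to 4.19 ± 1.57 FPKM (SD, n = 3 each; log2 difference 1.98 ± 0.75 SE, adjusted p = 0.104). Its groups did not overlap, nor did those of Glyma19g28400 (0.995 ± 0.764 to 2.32 ± 0.634 FPKM, log2 difference 0.80 ± 0.87 SE, adjusted p = 0.559). Of all tested gene models 63.8% did not overlap in this comparison, so 2 of 5 is below the background. The exact permutation test gave both its smallest possible two-sided p, 0.1, and 0.2 or more for the other 8 members.

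Fitting PI 567690 alone passed Glyma18g53680 (adjusted p = 0.00697), but also 45.1% of all tested gene models. It passed as well without Pana drought library 3 (adjusted p = 0.0451, with 21.6% of all tested gene models called) and without both libraries that stood apart (adjusted p = 0.00725, with 36.4% called). FT5a had means of 4.97 ± 4.57 and 9.52 ± 0.466 FPKM (log2 difference 1.27 ± 1.27 SE, adjusted p = 0.524). FT2a was almost level at 0.992 ± 0.866 and 0.861 ± 0.403 FPKM (log2 difference -0.0013 ± 1.05 SE, 95% interval -2.30 to 2.29).

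The difference between the drought effects of the lines (PI 567690 minus Pana) was positive for all 5 members, with a median of 1.84 against -0.14 over all tested gene models, but 0 of 5 passed (5.59% of all tested gene models did) and 0 had an unadjusted limma p under 0.05 (19.1% of all tested gene models had one). FT5a had the largest estimate of the 5 (log2 2.82 ± 1.79 SE, adjusted p = 0.426), followed by Glyma19g28400 (2.08 ± 1.23 SE, adjusted p = 0.394). Without Pana control library 1 the latter passed (3.35 ± 0.69 SE, adjusted p = 0.022), with 6.23% of all tested gene models called, while FT5a did not (4.53 ± 1.21 SE, adjusted p = 0.0574). Without Pana drought library 3 as well, both passed (adjusted p = 0.0114 for Glyma19g28400 and adjusted p = 0.0483 for FT5a), and 9.15% of all tested gene models were called.

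Well-watered plants of the lines were compared next. Again 0 of 5 members passed (14.6% of all tested gene models did), and 1, FT2a, had an unadjusted limma p under 0.05 (29.4% of all tested gene models had one). FT2a stood at 19.0 ± 16.7 FPKM in Pana and 0.992 ± 0.866 FPKM in PI 567690 (log2 difference, PI 567690 minus Pana, -2.63 ± 1.05 SE, 95% interval -4.92 to -0.33, adjusted p = 0.12). FT5a stood at 40.9 ± 35.8 and 4.97 ± 4.57 FPKM (-2.11 ± 1.27 SE, adjusted p = 0.292), and Glyma19g28400 at 8.81 ± 7.92 and 0.995 ± 0.764 FPKM (-1.63 ± 0.87 SE, adjusted p = 0.237). In each case Pana control libraries 2 and 3 lay above all PI 567690 controls, while library 1 lay within their range for FT2a and FT5a and below it for Glyma19g28400.

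Pana control library 1 decided the calls here. Without Pana control library 1, FT2a (log2 -3.97 ± 0.81 SE, adjusted p = 0.0113), FT5a (-3.82 ± 0.90 SE, adjusted p = 0.0215) and Glyma19g28400 (-2.90 ± 0.51 SE, adjusted p = 0.00587) were lower in PI 567690. In that fit 3.33% of all tested gene models were called lower and 12.9% were called in either direction. The same 3 members passed without Pana drought library 3 as well, where 19.8% of all tested gene models were called and 6.01% as lower. Pana control library 1 was the library with most gene models at 0, and what set it apart was not tested. Glyma18g53680 and Glyma08g47810 did not pass with or without it.

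Under drought, again between the lines, 0 of 5 members passed (0.388% of all tested gene models did) and 0 had an unadjusted limma p under 0.05 (6.84% of all tested gene models had one). The estimates for PI 567690 minus Pana ran from -0.79 for FT2a (95% interval -3.08 to 1.51) to 1.07 for Glyma08g47810 (-0.93 to 3.08). In the exact permutation tests of the 10 members in the 4 comparisons between groups, 2 of 40 reached the smallest possible p of 0.1, both in PI 567690 drought against control. In the other 3 comparisons the groups overlapped for every member, where they did not for 19.8% of all tested gene models under drought in Pana, 40.6% between control plants and 14.0% between droughted plants.

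**Figure D4:**
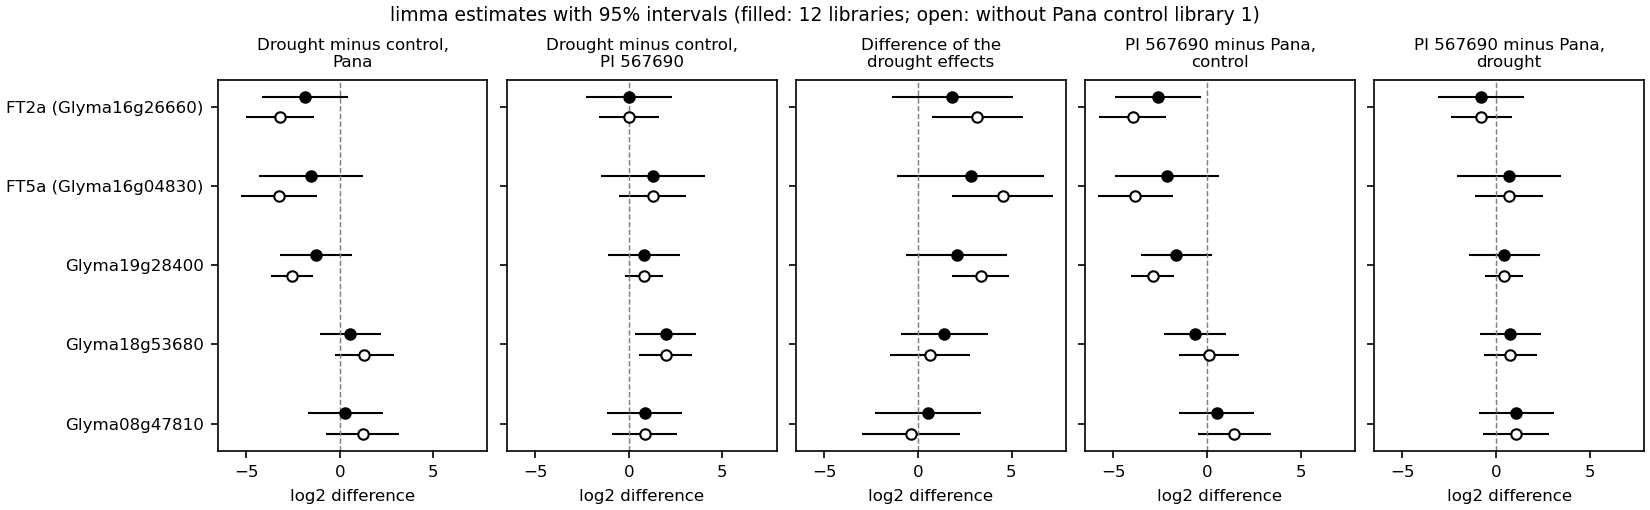
limma estimates (log2 difference on the log2(FPKM + 1) scale, horizontal axis) with 95% intervals for the 5 tested members (rows) in the 5 comparisons (panels), over 12 libraries (filled) and without Pana control library 1 (open). Leaving this library out moves FT2a, FT5a and Glyma19g28400 away from 0 in the 3 panels that use the Pana controls, as for FT2a in control plants from -2.63 to -3.97.

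By group mean on the log2(FPKM + 1) scale, FT2a ran from Pana control through Pana drought and PI 567690 control to PI 567690 drought. FT5a and Glyma19g28400 shared another order, from Pana control through PI 567690 drought and Pana drought to PI 567690 control. Glyma18g53680 was highest in PI 567690 drought and lowest in PI 567690 control, and Glyma08g47810 highest in PI 567690 drought and lowest in Pana control. Apart from the 2 non-overlapping pairs given above, each pair of groups compared overlapped for these members, so most of these orders lie within the spread of the replicates.

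Other genes of the photoperiod pathway were looked at through a list of 21 identifiers, placed there from general knowledge of soybean since the table does not annotate them. Of these, 20 were in the table and 11 were tested. In each line 1 of 11 passed, as lower under drought (0.658% of all tested gene models were called lower in Pana and 6.25% in PI 567690, or 2.15% and 12.3% in either direction). An unadjusted limma p under 0.05 was found for 6 of 11 in Pana, against 29.7% of all tested gene models, and for 5 of 11 in PI 567690, against 30.0%. The median log2 difference of the list was -0.12 in Pana and -0.40 in PI 567690, where all tested gene models had 0.32 and 0.21. For the difference of responses limma called 0 of 11 (5.59% of all tested gene models) and 0 had an unadjusted p under 0.05 (19.1%). Between control plants it called 0 (14.6%), with 1 at an unadjusted p under 0.05 (29.4%), and between droughted plants 0 (0.388%), with 1 at an unadjusted p under 0.05 (6.84%).

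The gene that passed in both lines was Glyma18g51320, listed among the CONSTANS-like genes, a family whose founder in Arabidopsis activates FT in the leaf. It stood at 679, 109 and 149 FPKM in the Pana controls, 22.5, 33.8 and 50.1 FPKM in Pana drought, 114, 92.0 and 97.8 FPKM in the PI 567690 controls and 9.28, 25.05 and 25.4 FPKM in PI 567690 drought. All drought libraries lay below all controls in both lines. The same held for Glyma08g28370, Glyma19g05170 and Glyma13g07030, also listed as CONSTANS-like. Glyma08g28370 held 69.4 to 210 FPKM in the Pana controls and 43.6 to 47.6 FPKM in Pana drought. In the same order it held 59.8 to 74.3 and 22.6 to 33.5 FPKM in PI 567690. Glyma19g05170 held 0.894 to 3.80 and 0.230 to 0.779 FPKM in Pana, and 1.03 to 1.41 and 0.156 to 0.513 FPKM in PI 567690. Neither passed over all 12 libraries, and Glyma13g07030 was under the filter. Drought and control groups did not overlap for 19.8% of all tested gene models in Pana and 63.8% in PI 567690. For Glyma18g51320 the log2 difference was -2.69 ± 0.61 SE in Pana (adjusted p = 0.0486) and -2.41 ± 0.61 SE in PI 567690 (adjusted p = 0.0271). The call was kept in 6 of 20 alternatives in Pana (adjusted p from 0.00939 to 0.358) and in 13 of 20 in PI 567690 (0.00109 to 0.121). Leaving out any of Pana control libraries 1 and 2, Pana drought libraries 1 and 2, the PI 567690 controls or PI 567690 drought libraries 2 and 3 ended it in Pana. So did the replicate block (log2 difference -2.69, adjusted p = 0.0708), Pana fitted alone (adjusted p = 0.358), no filter (adjusted p = 0.0815), a mean of at least 5 FPKM (adjusted p = 0.054) and averaging PI 567690 drought libraries 2 and 3 (adjusted p = 0.0783). In PI 567690 averaging those libraries ended it (adjusted p = 0.0519), and it ended without any 1 of that line's own 6 libraries. Pana control library 1, low in FT2a and FT5a, had the highest Glyma18g51320.

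The 2 models listed as close relatives of E1 were also under the filter. Glyma04g24640 reached at most 0.617 FPKM and Glyma18g22670 at most 0.769 FPKM, with means of 0.375 and 0.363 FPKM in the Pana controls, where E1 had 0.0893 FPKM. Both were at 0 in all 3 PI 567690 drought libraries. The PI 567690 controls were also near 0, at 0.155, 0 and 0 FPKM for Glyma04g24640 and 0.149, 0.0375 and 0 FPKM for Glyma18g22670. Of 6 models listed as SOC1 or AP1 genes, which act downstream of FT in Arabidopsis, Glyma18g45780 and Glyma09g40230 were tested and did not pass in any comparison over all 12 libraries. Glyma18g45780 ranged from 24.2 to 57.3 FPKM and Glyma09g40230 from 23.8 to 38.1 FPKM. The other 4 were under the filter. Glyma02g13420 was at 0.137, 1.02 and 5.34 FPKM in the Pana controls and at most 0.445 FPKM in any other group. The highest values of Glyma16g13070, Glyma01g08150 and Glyma08g36380 were 0.471, 0.256 and 0.0836 FPKM, in Pana control library 3, PI 567690 control library 2 and Pana control library 2. The 2 models in the table listed as kin of FT and TFL1 were at 0 in all 12 libraries.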

How the data were processed

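Leaf RNA-seq values of 12 libraries, 3 per group, were taken from 1 table, each column placed by the line and treatment in its name. The deposited values were taken as FPKM computed by the authors. Its header names no unit, which was inferred from fractional values and from steps that vary with the gene. TopHat 1.4.1, Cufflinks, Cuffdiff and FastQC appear, without roles, in the submitters' processing notes. For build and annotation, nothing is given in the sources used here.

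Tests ran on log2(FPKM + 1), which understates changes of low genes, for the 32697 gene models reaching 1 FPKM in 3 or more libraries. They used limma 3.58.1 under R 4.3.3 (variance trend with mean level, 1 coefficient per group, 8 residual and 3.42 prior degrees of freedom) and Benjamini-Hochberg adjustment over all of them at 0.05. The fit was tested on simulated data. Exact two-sided permutation tests of 3 against 3 libraries cannot go below 0.1. Reads were recovered from the value of 1 read in each library, relative to Pana drought library 3, up to a common factor per gene, and whether a unit is a read or a read pair is not given. Correlations used 100000 permutations, adjusted over 10 pairs for each coefficient. Values were shuffled over all 12 libraries without regard to group, so differences between groups enter these coefficients and p-values. Pattern likeness was Pearson r, with the 2 closest gene models named per tested member. All 10 members are reported.

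The members and gene lists were chosen with earlier results of these data known. Python 3.11.15, numpy 2.4.6, pandas 2.3.3, scipy 1.17.1 and matplotlib 3.10.9 were used.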

Additional observations from a re-analysis of the deposited data

How the results depend on the processing

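The settings changed were the scaling (equal median ratio), no filter or a mean of at least 5 FPKM, a pseudocount of 0.25, the groups of 1 line or treatment fitted alone, a replicate block, PI 567690 drought libraries 2 and 3 averaged, and each library left out. Leaving out both Pana control library 1 and Pana drought library 3 was added after the data were seen.

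No comparison called a member over all 12 libraries. With single libraries left out, the number of members called was 0 to 1 for drought in Pana, for drought in PI 567690 and for the difference of these effects, 0 to 3 for the lines under control and 0 for the lines under drought. These calls came without Pana control library 1, or in PI 567690 without Pana drought library 3. Of all tested gene models 1.48% were then called for drought in Pana and 21.6% in PI 567690. It was 6.23% for the difference of effects and 12.9% for the lines under control. With both libraries left out the number of members called was 3, 1, 2, 3 and 0. Of all tested gene models 31.3%, 36.4%, 9.15%, 19.8% and 1.34% were then called, so 1 of 5 in PI 567690 was below the background. PI 567690 fitted alone gave 1 under drought, where 45.1% of all tested gene models were called. All other alternatives gave 0, the replicate block included. Most same-numbered libraries did not deviate together (r from -0.109 to 0.656, median 0.031, above 0.1 in 5 of 18 pairs). Of 12 libraries, 6 were closest to their own number. Between the drought libraries of the 2 lines r was 0.656 for number 1 and 0.608 for number 3, but -0.109 for number 2. Pana drought library 3 was about as close to PI 567690 drought library 2 (r = 0.603). The numbers were therefore not taken as pairs. The block moved no count of calls over all genes by more than 1.5 times.

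Of 480 alternative estimates for the 5 tested members in 5 comparisons, 443 kept their direction and side of the threshold, 16 newly passed and 21 changed sign, none of these a call. FT2a under drought in PI 567690, near 0, became 0.23 with the pseudocount of 0.25 and 0.084 with libraries averaged, and was -0.44 to 0.25 with single libraries left out. With both libraries left out, Glyma18g53680 became 0.10 between control plants, and FT5a and Glyma19g28400 became -0.13 and -0.066 between droughted plants. With single libraries left out, Glyma18g53680 ranged from -0.19 to 1.33 and Glyma08g47810 from -0.43 to 1.22 for drought in Pana, and Glyma08g47810 from -0.38 to 1.29 for the difference of effects. Between control plants Glyma18g53680 ranged from -1.03 to 0.10 and Glyma08g47810 from -0.21 to 1.45. Between droughted plants FT2a ranged from -1.59 to 0.14, FT5a from -0.13 to 1.30 and Glyma19g28400 from -0.066 to 0.86. The cause of these shifts was not tested. Depth limits E1, Glyma16g04840 and Glyma19g28390, which rest on 0 to 6 reads per library.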
